A study of Homo sapiens with 10 samples.

Results

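The kinesin motor genes of 697 cells, an established line of human pre-B leukaemia, were compared between cells treated with TPA (12-O-tetradecanoylphorbol-13-acetate, a phorbol ester that activates protein kinase C) and control cells. They were taken as the protein-coding rows of the expression table whose symbol begins with KIF followed by a number or by C, which gave 43 of 27142 genes. Of these, 42 encode motors and 1, KIF1BP, encodes a protein that binds kinesins and is no motor itself. The motors were divided by known role into 14 mitotic kinesins, 15 transport kinesins and 13 with other or mixed roles.

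The RNA measurements came from the parental 697 line, in 2 TPA libraries and 2 control libraries of total RNA. The TPA dose was 0.5 µg/ml. Exposure is stated only as a range from 0 to 24 h, without saying which point the RNA libraries represent. The series also holds 6 ChIP-seq and input DNA libraries, 3 of them from an inducible 697 line expressing FH-NAP1, which were not analysed here. No label says that replicates were separate cultures, so p-values measure only the spread between these libraries, which may be technical.

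Kinesins are motor proteins that use ATP to move along microtubules or to take apart their ends. One set builds and runs the mitotic spindle and the cleavage furrow, and in cycling cells its transcripts accumulate in late S phase, G2 and mitosis. Another set carries vesicles, organelles and protein complexes, with a light chain, an accessory subunit or an adaptor linking motor and cargo. Further kinesins work in cilia, at centrioles or as regulators of microtubule growth.

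Levels are given in RPKM, reads scaled to gene length and library size, so that genes can be compared with one another. All 10 B-lineage marker genes averaged at least 1 RPKM with TPA and in control, but their levels were far apart between the groups. The 10 summed to 1198 and 1360 RPKM with TPA, against 2135 and 2127 RPKM in control. CD79A, a signalling chain of the B-cell receptor, was higher, with 823 and 893 RPKM with TPA, against 218 and 199 RPKM in control, as was CD79B. DNTT, the terminal transferase of early lymphocytes, was lower, with 14.6 and 37.4 RPKM with TPA, against 775 and 803 RPKM in control. In DNTT, IGLL1, VPREB1, RAG1 and RAG2, TPA replicate 2 lay more than 2-fold above TPA replicate 1, and the part of these differences in the kinesin values was not tested. T-cell markers summed to at most 0.127 RPKM and erythroid markers to at most 0.161 RPKM in any library. Of 7 myeloid markers, CSF1R alone reached a mean of 1 RPKM with TPA and none did in control, and the 7 summed to 3.17 and 3.96 RPKM with TPA, against 0.667 and 1.03 RPKM in control. The number of reads per library is not given, and relative depth, read from the smallest steps between values, was for TPA replicate 1 97.8%, for TPA replicate 2 91.3% and for control replicate 2 97.3% of that of control replicate 1. In bulk RNA, fewer cells of a kind and less RNA per cell cannot be told apart, and this holds for every difference below.

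Kinesin transcripts were less abundant with TPA, and the loss lay mostly in the mitotic motors. The 42 motor genes summed to 169.65 and 176.6 RPKM in the TPA libraries, against 457 and 487 RPKM in the control libraries. Mitotic kinesins made up 26.1% and 24.9% of that sum with TPA, against 62.7% and 63.6% in control. Transport kinesins summed to 80.1 and 84.9 RPKM with TPA, against 93.2 and 97.7 RPKM in control, and so took 47.2% and 48.1% of the kinesin sum with TPA, against 20.4% and 20.1% in control. The remaining motors summed to 45.3 and 47.8 RPKM with TPA and to 77.2 and 79.3 RPKM in control. KIF2A, followed by KIF5B, had the highest level of any motor gene in both TPA libraries, whereas KIF22 led in both control libraries.

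**Figure D1:**
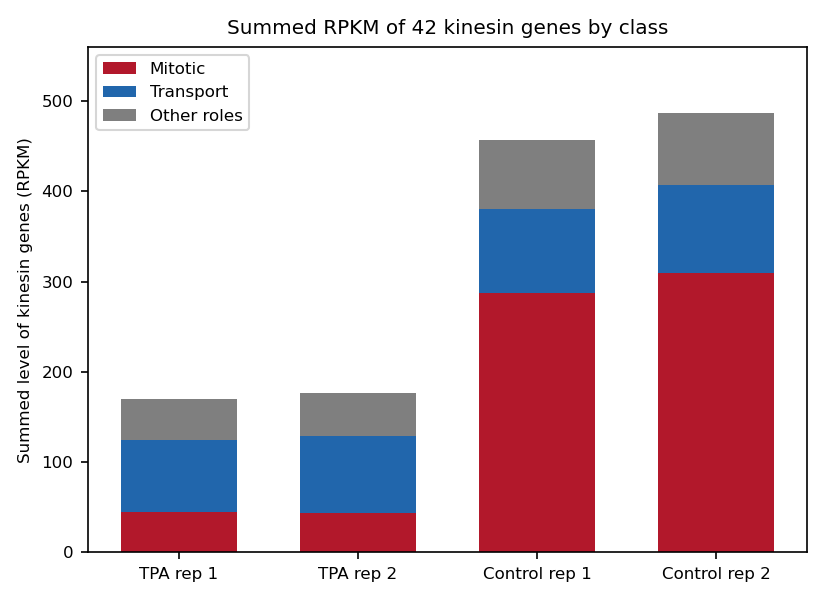
Summed RPKM of the 42 kinesin motor genes in each library (bars, 2 TPA and 2 control libraries), split into mitotic, transport and other kinesins. The mitotic part is 44.2 and 43.9 RPKM with TPA, against 287 and 310 RPKM in control.

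Genes were tested if they reached 1 RPKM in 2 or more libraries, using limma on log2(RPKM + 1) with Benjamini-Hochberg adjustment over the 12159 genes tested, and were called at an adjusted p under 0.05. Of the 42 motors, 30 were tested and 12 were too low. Among those tested 4 rose, 20 fell and 6 did not pass. Across all genes tested 58.2% were called, 28.4% higher and 29.8% lower with TPA. Of the 30 motors, 25 reached 1 RPKM in every library, 4 passed through the control libraries alone (KIF4B, KIF12, KIF24 and KIF26A) and 1 (KIF27) reached it in both TPA libraries and 1 control library. A gene that passes through 1 group alone had to differ, so counts over the tested motors describe them and support nothing further.

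Every mitotic kinesin that was tested, 12 of 14, fell with TPA, with log2 fold changes between -3.17 and -0.98 and a median of -2.35, against -0.02 over all genes tested. A log2 fold change of -2 or lower was found for 11 of the 12, against 3.18% of all genes tested. The 11 that reached 1 RPKM in every library were all lower in both TPA libraries than in either control library, as were 41.0% of all genes tested (groups apart in either direction, 79.8%). The 12 falls held in every alternative that tested these genes.

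KIF11, the plus-end motor that pushes the spindle poles apart, had 3.66 and 3.39 RPKM in the TPA libraries, against 38.4 and 40.8 RPKM in the control libraries. Its fall was the largest of the mitotic kinesins, at 11.2-fold in mean RPKM (log2 fold change -3.17, SE 0.13, limma adjusted p = 8.63e-07). KIF15, a second plus-end spindle motor that can back up KIF11, had 2.40 and 2.72 RPKM with TPA, against 22.2 and 27.8 RPKM in control (log2 fold change -2.86, SE 0.152, limma adjusted p = 2.80e-06). The ratio of KIF11 to KIF15 was 1.52 and 1.25 with TPA, against 1.73 and 1.46 in control, and the groups overlapped in this ratio.

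KIF22, a chromosome-bound motor that moves chromosome arms away from the poles, had 13.2 and 14.5 RPKM with TPA, against 78.7 and 82.7 RPKM in control. It had the highest level of the mitotic kinesins in all 4 libraries. KIF18A, which dampens chromosome movements at the metaphase plate, had 1.65 and 1.68 RPKM with TPA, against 10.5 and 11.7 RPKM in control. Its relative KIF18B, which acts on astral microtubules, had 1.8 and 1.88 RPKM with TPA, against 16.1 and 17.6 RPKM in control. The fall was deeper for KIF18B (log2 fold change -2.65, SE 0.13) than for KIF18A (-2.18, SE 0.13). The KIF18A to KIF18B ratio was 0.921 and 0.895 with TPA, against 0.654 and 0.665 in control; these do not overlap, but with 2 libraries a group the exact two-sided permutation p of 0.333 is the smallest possible.

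KIF2C, the microtubule depolymerase of centromeres, had 7.86 and 6.57 RPKM with TPA, against 37.2 and 39.8 RPKM in control. KIF2A, a depolymerase of the same subfamily with roles at spindle poles and outside mitosis, was counted with the mixed roles. It fell much less, with 26.0 and 26.5 RPKM with TPA, against 37.7 and 40.9 RPKM in control (log2 fold change -0.57, SE 0.131, limma adjusted p = 0.00660). With 1 library left out, the log2 fold change of KIF2A ran from -0.62 to -0.51. Such a fit keeps only 1 library in a group, so for single genes only its log2 fold change is given. The 2 depolymerase genes were near equal in control, with KIF2C to KIF2A ratios of 0.303 and 0.248 with TPA, against 0.987 and 0.973 in control (exact permutation p = 0.333, the smallest possible).

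Motors of the central spindle and of cytokinesis fell alongside. KIF23, which pairs with RACGAP1 in the centralspindlin complex, had 2.30 and 2.29 RPKM with TPA, against 17.0 and 18.7 RPKM in control. KIF20A, which relocates Aurora B to the midzone, had 3.50 and 4.13 RPKM with TPA, against 23.9 and 23.1 RPKM in control. KIF20B had 3.12 and 2.66 RPKM with TPA, against 16.8 and 20.8 RPKM in control. In none of these did the groups approach each other: the highest TPA value was 4.13 RPKM and the lowest control value 16.8 RPKM. KIF14, a partner of citron kinase at the midbody, had 1.64 and 1.58 RPKM with TPA, against 11.2 and 11.4 RPKM in control.

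KIF4A, a chromokinesin that works with PRC1 on the length of midzone microtubules, had 2.76 and 2.24 RPKM with TPA, against 13.3 and 13.6 RPKM in control. KIF4B, an intronless and near-identical copy of KIF4A on another chromosome (5q33.2, against Xq13.1), had 0.343 and 0.261 RPKM with TPA, against 1.59 and 1.56 RPKM in control. The KIF4A to KIF4B ratio was 8.04 and 8.59 with TPA, against 8.39 and 8.76 in control, thus nearly constant over the 4 libraries. The sources used here do not say how reads matching both copies were assigned, so the KIF4B values are uncertain. The smaller log2 fold change of KIF4B, -0.98, comes with a value near the pseudocount, and it was -2.07 with a pseudocount of 0.1.

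The 2 mitotic kinesins not tested were KIF2B, listed at 0 in every library, and KIFC1, a minus-end motor that focuses spindle poles. KIFC1 had 0 and 0.0170 RPKM with TPA, against 0.0790 and 0.0570 RPKM in control. KIFC1 lies in 6p21.32, a band in which 8 of 50 protein-coding genes had a mean of at least 1 RPKM, compared with 27 of 45 in neighbouring 6p21.31; the part of this in the KIFC1 value was not tested.

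**Figure D2:**
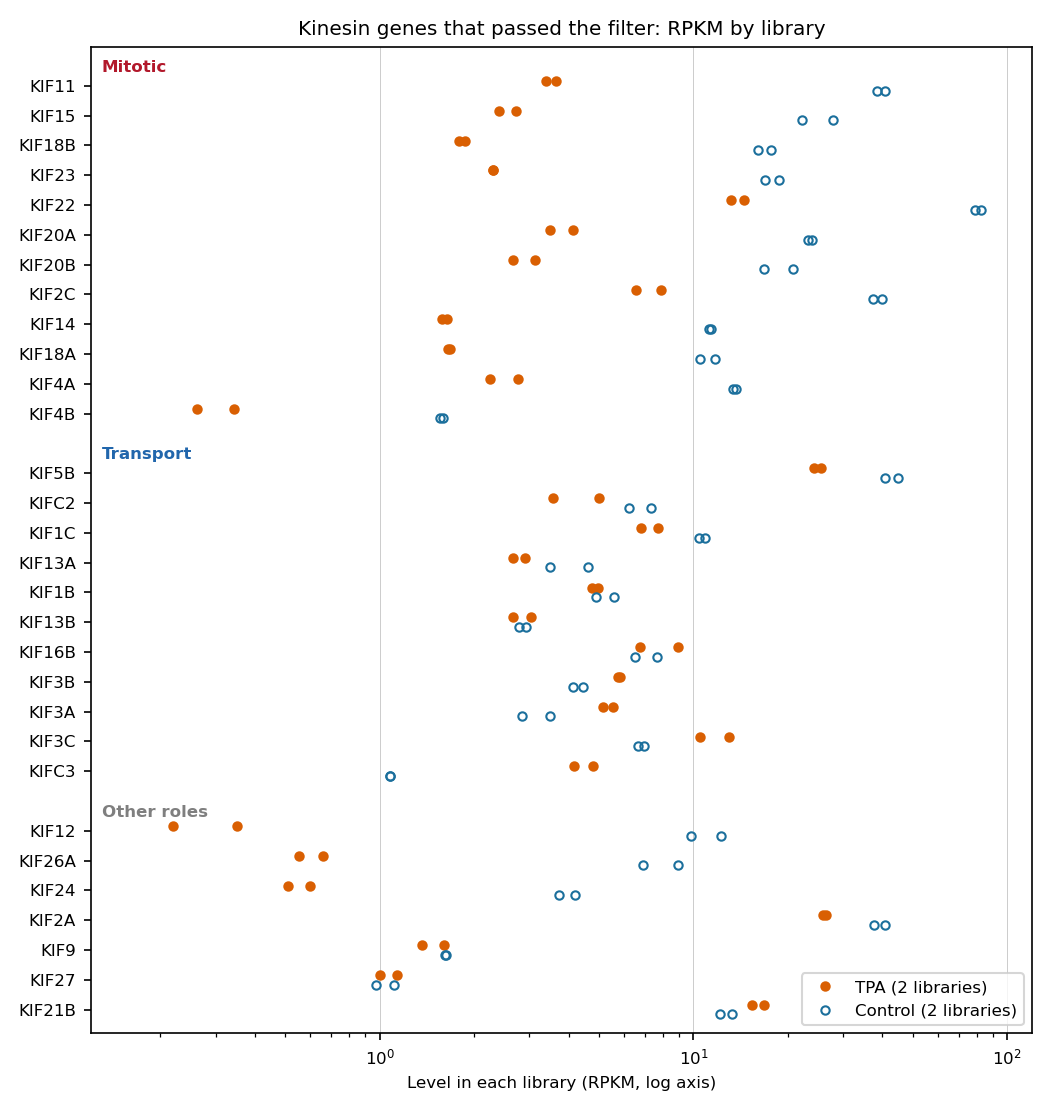
RPKM in each library (log axis) of the 30 kinesin motor genes tested; filled points are TPA libraries and open points control libraries, 2 of each. In each mitotic kinesin both TPA values lie left of both control values, while KIF3A, KIF3B, KIF3C and KIFC3 lie the other way.

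The promoters of the mitotic kinesins also have a feature that the symbol rule did not use. In cell-cycle genes, a short element called the CHR (cell cycle genes homology region, TTTGAA) close to the transcription start is a known docking site for MuvB complexes, and CCAAT boxes often stand just upstream of it. RefSeq promoter windows (GRCh38.p14, 250 bases before to 50 after the start) were found for 35 of the 43 genes, not for KIF5A, KIF13B, KIFC2, KIFC3, KIF19, KIF21B, KIF26B and KIF27, and were searched on both strands. The stretches below, from 100 bases before to 30 after the start and read 5′ to 3′ along the gene, show where the elements lie. Capitals mark TTTGAA, its variant TTCGAA and CCAAT, which appear as TTCAAA and ATTGG where they match the other strand; TTCGAA reads the same on both. The first 6 are mitotic kinesins with TTTGAA or its variant near the start, followed by KIF15 without a CCAAT box, KIF20A without either CHR form, KIF24 (centriole) and the transport gene KIF3B for contrast.
KIF11 (chr10:92593030-92593159, plus strand): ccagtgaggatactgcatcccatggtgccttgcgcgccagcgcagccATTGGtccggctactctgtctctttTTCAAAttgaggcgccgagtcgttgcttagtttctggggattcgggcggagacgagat
KIF14 (chr1:200620722-200620851, minus strand): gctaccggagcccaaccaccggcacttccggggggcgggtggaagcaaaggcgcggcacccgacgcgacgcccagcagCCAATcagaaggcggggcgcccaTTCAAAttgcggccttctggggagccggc
KIF4A (chrX:70290004-70290133, plus strand): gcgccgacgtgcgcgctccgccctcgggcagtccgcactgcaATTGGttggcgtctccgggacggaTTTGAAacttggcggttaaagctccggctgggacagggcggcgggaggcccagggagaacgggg
KIF18A (chr11:28108127-28108256, minus strand): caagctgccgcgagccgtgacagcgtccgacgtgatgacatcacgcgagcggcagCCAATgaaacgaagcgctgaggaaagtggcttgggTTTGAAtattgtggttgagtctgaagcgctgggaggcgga
KIF18B (chr17:44947744-44947873, minus strand): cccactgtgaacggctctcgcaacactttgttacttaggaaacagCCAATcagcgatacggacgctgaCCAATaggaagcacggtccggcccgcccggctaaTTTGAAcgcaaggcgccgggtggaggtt
KIF22 (chr16:29790651-29790780, plus strand): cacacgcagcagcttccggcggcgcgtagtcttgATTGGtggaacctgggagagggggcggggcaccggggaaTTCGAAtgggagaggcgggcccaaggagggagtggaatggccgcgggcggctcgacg
KIF15 (chr3:44761694-44761823, plus strand): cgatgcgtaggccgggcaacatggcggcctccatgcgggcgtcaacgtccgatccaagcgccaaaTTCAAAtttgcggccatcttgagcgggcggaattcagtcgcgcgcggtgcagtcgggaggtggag
KIF20A (chr5:138179012-138179141, plus strand): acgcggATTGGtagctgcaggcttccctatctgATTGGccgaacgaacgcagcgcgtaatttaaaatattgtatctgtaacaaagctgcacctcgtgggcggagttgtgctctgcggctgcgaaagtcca
KIF24 (chr9:34329239-34329368, minus strand): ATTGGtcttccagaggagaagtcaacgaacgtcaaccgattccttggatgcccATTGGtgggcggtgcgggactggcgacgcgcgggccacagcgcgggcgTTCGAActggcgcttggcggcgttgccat
KIF3B (chr20:32277551-32277680, plus strand): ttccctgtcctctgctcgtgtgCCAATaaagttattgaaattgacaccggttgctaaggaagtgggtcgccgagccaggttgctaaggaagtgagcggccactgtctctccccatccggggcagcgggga

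TTTGAA was present in 10 of 14 mitotic kinesin promoters, in 1 of 11 transport kinesin promoters and in 0 of 9 of the other group, against 18.2% of 27305 genes with a promoter window. All 10 mitotic matches began no more than 60 bases before the start, whereas 6.3% of all genes had a match there; the transport match, in KIF5B, began 140 bases before it (position -140). TTTGAA together with CCAAT was found in 9 of 14 mitotic kinesins, against 7.3% of all genes. CCAAT alone was common, in 11 of 14 mitotic and 4 of 11 transport kinesins and in 39.7% of all genes. Among the genes tested that had a window, TTTGAA anywhere in it was found in 15.6% of genes that fell, 14.4% of those that rose and 12.0% of those that did not pass. A match beginning no more than 60 bases before the start was found in 6.9%, 4.2% and 3.4% of these. Such a match together with CCAAT was found in 3.7%, 1.5% and 1.4%. No test was run on these shares, and KIF4A and KIF4B are copies of each other.

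From the first base of CCAAT to the first base of TTTGAA the distance was 23 bases in KIF14, 24 in KIF4A and KIF4B and 25 in KIF11. It was 34 bases in KIF18B and 35 in KIF18A, counted from the nearer CCAAT box, 50 in KIFC1 and 9 in KIF23. KIF20B had TTTGAA at positions 25 and 31, at a distance of 122 and 128 bases from its nearer CCAAT box. KIF22 and KIF24 held the variant TTCGAA, at position -27 and position 2, which 1.8% of all genes with a window hold. KIF20A and KIF2C fell like the other mitotic kinesins (log2 fold changes -2.35 and -2.27) and held neither form in the window. A match is a string of letters and not evidence of binding.

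Transport kinesins showed no common direction. Of 15, 11 were tested, of which 4 rose, 4 fell and 3 did not pass, and their log2 fold changes ran from -0.76 to 1.39 around a median of 0.00. All 11 reached 1 RPKM in every library, and the share called was 8 of 11 against 58.2% of all genes. None had a log2 fold change of -2 or lower. With no filter 1 rose and 2 fell, while over all 27142 genes then tested 2514 rose and 2097 fell. With 1 library left out, the median log2 fold change of the transport kinesins ran from -0.08 to 0.02.

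The motor subunits of the KIF3 complex were higher with TPA. KIF3A and KIF3B form the heterodimer that drives transport into cilia and carries cargo in the cytoplasm, and KIF3C can replace KIF3B in it. KIF3A had 5.17 and 5.53 RPKM with TPA, against 2.85 and 3.49 RPKM in control (log2 fold change 0.61, SE 0.139, limma adjusted p = 0.00613). KIF3B had 5.75 and 5.83 RPKM with TPA, against 4.13 and 4.44 RPKM in control (log2 fold change 0.36, SE 0.127, limma adjusted p = 0.0393). KIF3C had 10.5 and 13.0 RPKM with TPA, against 6.97 and 6.66 RPKM in control (log2 fold change 0.70, SE 0.145, limma adjusted p = 0.00397). In each of the 3 genes both TPA values lay above both control values, as in 38.8% of all genes tested. KIFAP3, the accessory subunit that joins the KIF3 heterodimer to its cargo, had 4.68 and 6.66 RPKM with TPA, against 2.70 and 2.98 RPKM in control, and rose as well (log2 fold change 0.78, SE 0.168, limma adjusted p = 0.00461). With 1 library left out, the log2 fold changes ran from 0.32 to 0.40 for KIF3B and from 0.50 to 0.72 for KIF3A. For KIF3C they ran from 0.56 to 0.84, the lowest without TPA replicate 2. With no filter on low values KIF3A, KIF3B and KIF3C lost their calls, with limma adjusted p of 0.0777, 0.0617 and 0.0735. KIFAP3 lost its call in that fit too.

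KIFC3, a minus-end motor of epithelial junctions and apical transport, had 4.78 and 4.18 RPKM with TPA, against 1.08 and 1.08 RPKM in control. At 4.14-fold in mean RPKM this was the largest rise of any kinesin tested (log2 fold change 1.39, SE 0.131, limma adjusted p = 5.64e-05). KIFC2, the other minus-end motor of this class, had 5.01 and 3.56 RPKM with TPA, against 7.32 and 6.23 RPKM in control (log2 fold change -0.57, SE 0.168, limma adjusted p = 0.0203). The ratio of KIFC3 to KIFC2 was 0.955 and 1.17 with TPA, against 0.148 and 0.174 in control (exact permutation p = 0.333, the smallest possible). The call of KIFC2 was lost after median-of-ratios scaling (-0.52, limma adjusted p = 0.0565) and with no filter (limma adjusted p = 0.204). With 1 library left out, the log2 fold change of KIFC2 ran from -0.77 to -0.37. KIFC3 kept its call with no filter (limma adjusted p = 0.0226).

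KIF5B, the ubiquitous heavy chain of conventional kinesin, had 24.3 and 25.4 RPKM with TPA, against 40.8 and 44.8 RPKM in control. It was the most abundant transport kinesin in every library and fell 1.72-fold in mean RPKM (log2 fold change -0.76, SE 0.133, limma adjusted p = 0.00166). Its neuronal relatives were nearly absent: KIF5A was listed at 0.0170 RPKM at most, and KIF5C had 0.0600 RPKM in both TPA libraries, against 0.535 and 0.465 RPKM in control, below the filter. Of the light chains that bind KIF5 heavy chains, KLC4 rose, with 11.03 and 12.5 RPKM with TPA, against 5.68 and 4.57 RPKM in control. KLC1, KLC2 and KLC3 did not pass, with log2 fold changes of 0.13, -0.24 and 0.28.

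Among the KIF1 and KIF13 motors, which carry vesicles and endosomes, the differences were small. KIF1C, a motor of dense-core vesicles and integrin carriers, had 6.79 and 7.73 RPKM with TPA, against 10.4 and 10.9 RPKM in control (log2 fold change -0.50, SE 0.133, limma adjusted p = 0.0131). KIF1B, which moves mitochondria and synaptic vesicle precursors, did not pass, with 4.97 and 4.75 RPKM with TPA, against 4.91 and 5.57 RPKM in control (log2 fold change -0.09, 95% interval -0.39 to 0.22). KIF13A, an endosome motor, had 2.66 and 2.90 RPKM with TPA, against 4.62 and 3.48 RPKM in control (log2 fold change -0.41, SE 0.152, limma adjusted p = 0.0477). In KIF1C and KIF13A both TPA values lay below both control values, as in 41.0% of all genes tested, and both calls were lost with no filter. KIF13A lost its call after median-of-ratios scaling (-0.37, limma adjusted p = 0.0750), with a pseudocount of 0.1 (-0.51, limma adjusted p = 0.0516) and with no filter (limma adjusted p = 0.247). With 1 library left out, the log2 fold change of KIF13A ran from -0.57 to -0.25. KIF1C lost its call with no filter (limma adjusted p = 0.0615), and with 1 library left out its log2 fold change ran from -0.58 to -0.41.

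KIF13B, a relative of KIF13A, had 3.05 and 2.65 RPKM with TPA, against 2.92 and 2.78 RPKM in control, a log2 fold change of 0.00 with a 95% interval of -0.30 to 0.30. KIF16B, an endosome motor with a lipid-binding domain, had 6.75 and 8.94 RPKM with TPA, against 6.497 and 7.67 RPKM in control (0.12, 95% interval -0.26 to 0.50). In both genes the groups overlapped. KIF1BP, the kinesin-binding protein that inhibits several of these motors, fell, with 6.85 and 6.96 RPKM with TPA, against 10.6 and 11.7 RPKM in control (log2 fold change -0.62, SE 0.131, limma adjusted p = 0.00432). With 1 library left out, the log2 fold change of KIF1BP ran from -0.69 to -0.55.

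KIF1A and KIF17, motors best known from neurons, were below the filter. KIF1A had 0.0170 and 0.0450 RPKM with TPA and was listed at 0 in both control libraries, and KIF17 had 0.231 and 0.319 RPKM with TPA, against 0.119 and 0.161 RPKM in control. Of 6 neuronal marker genes, 2 averaged at least 1 RPKM with TPA and 0 in control. The 6 summed to 16.3 and 22.3 RPKM with TPA, against 0.941 and 0.505 RPKM in control, most of it from MAP2 (14.9 and 20.7 RPKM with TPA, against 0.655 and 0.331 RPKM in control), which encodes a microtubule-binding protein. NEFL was at 0 in every library, and the part of these genes in the transport results was not tested.

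The 13 kinesins with other roles held both the deepest fall of the family and several genes with no detectable difference. Of these, 7 were tested, and 4 fell, 0 rose and 3 did not pass, against 29.8% of all genes called lower and 28.4% called higher; the median log2 fold change was -0.57. Of the 4 that fell, 3 (KIF12, KIF24 and KIF26A) passed the filter through the control libraries alone. Without adjustment, 1 gene of this group, KIF21B, was higher with TPA past the threshold of 0.05 in the same limma model.

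KIF12, a kinesin known from kidney and liver epithelium and primary cilia, had 0.219 and 0.352 RPKM with TPA, against 9.85 and 12.2 RPKM in control. The mean was 38.7-fold lower, a larger fall than that of any mitotic kinesin (log2 fold change -3.22, SE 0.149, limma adjusted p = 1.57e-06), and it ranked 77 among the 12159 genes ordered from the largest fall. KIF26A, an unconventional kinesin described as lacking ATPase activity, had 0.658 and 0.553 RPKM with TPA, against 8.96 and 6.93 RPKM in control, a 13.1-fold fall in mean RPKM (log2 fold change -2.47, SE 0.152, limma adjusted p = 5.75e-06). KIF24, which remodels centriolar microtubules and restrains cilium formation in cycling cells, had 0.598 and 0.510 RPKM with TPA, against 4.20 and 3.73 RPKM in control (log2 fold change -1.67, SE 0.131, limma adjusted p = 2.07e-05). All 3 passed the filter through the control libraries alone, and the TPA values lie where the added 1 RPKM shrinks the log2 fold change: with a pseudocount of 0.1 it was -4.87 for KIF12, -3.50 for KIF26A and -2.64 for KIF24.

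KIF21B, a regulator of microtubule growth that is expressed in lymphocytes and brain, had 15.4 and 16.9 RPKM with TPA, against 13.3 and 12.1 RPKM in control. Both TPA values lay above both control values, as in 38.8% of all genes tested. The gene did not pass (log2 fold change 0.32, 95% interval 0.01 to 0.63, limma adjusted p = 0.0725). It did after median-of-ratios scaling (limma adjusted p = 0.0266) and after quantile normalization (limma adjusted p = 0.0324). KIF9 and KIF27, kinesins of motile cilia, stayed near the filter. KIF9 had 1.36 and 1.60 RPKM with TPA, against 1.61 and 1.63 RPKM in control, and KIF27 had 1.003 and 1.14 RPKM with TPA, against 0.972 and 1.11 RPKM in control. An antisense transcript of the KIF9 locus, KIF9-AS1, had 1.06 and 1.53 RPKM with TPA, against 0.412 and 0.415 RPKM in control, and whether counting used strand is not given in the sources used here, so KIF9 and its antisense partner cannot be told apart.

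Of the 6 not tested in this group, KIF19 and KIF25 were listed at 0 in every library. KIF7, the Hedgehog pathway regulator at the tip of the cilium, had 0.0240 and 0.0210 RPKM with TPA, against 0.464 and 0.492 RPKM in control. KIF6, KIF21A and KIF26B had at most 0.12 RPKM in any library.

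**Figure D3:**
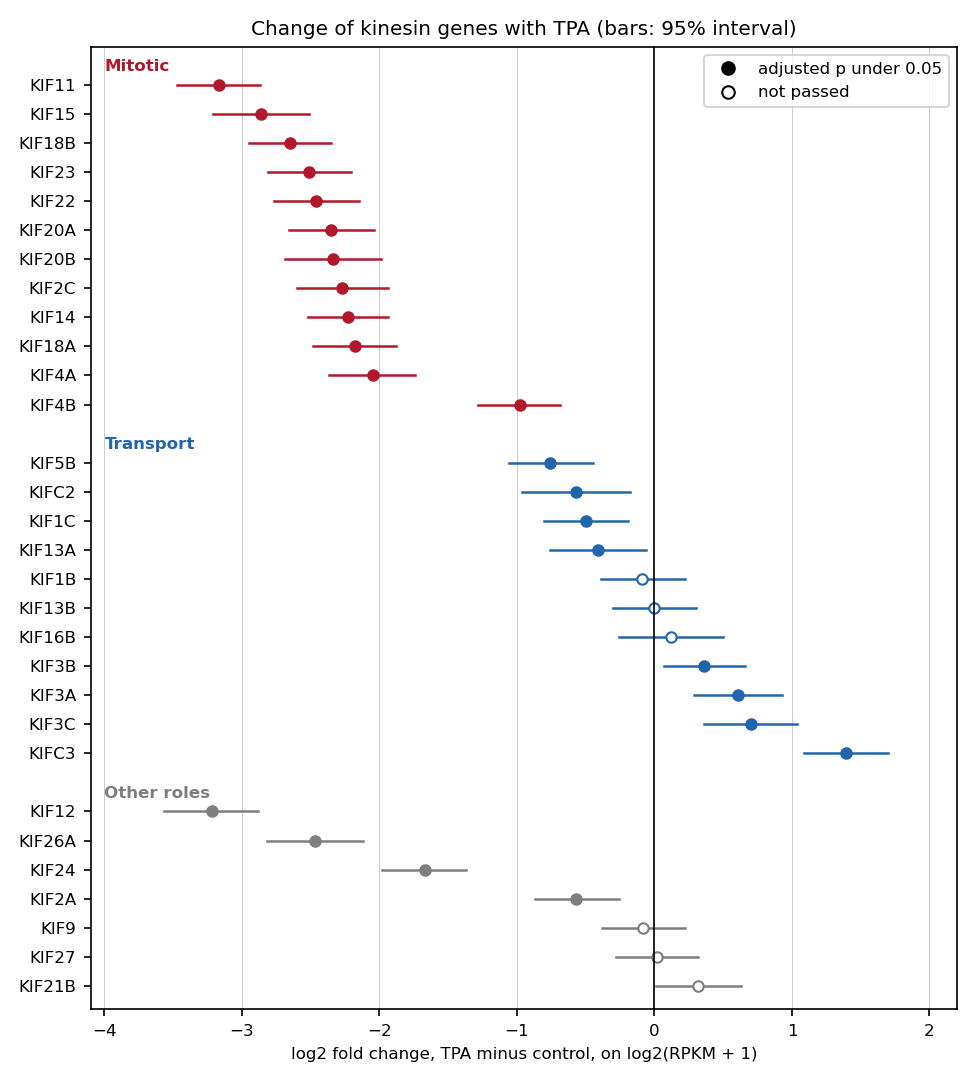
Log2 fold change of each tested kinesin, TPA minus control on log2(RPKM + 1), with its 95% interval from limma (2 libraries a group); filled points passed an adjusted p of 0.05. The mitotic kinesins lie between -3.17 and -0.98, and the transport kinesins between -0.76 and 1.39 on both sides of 0.

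**Figure D4:**
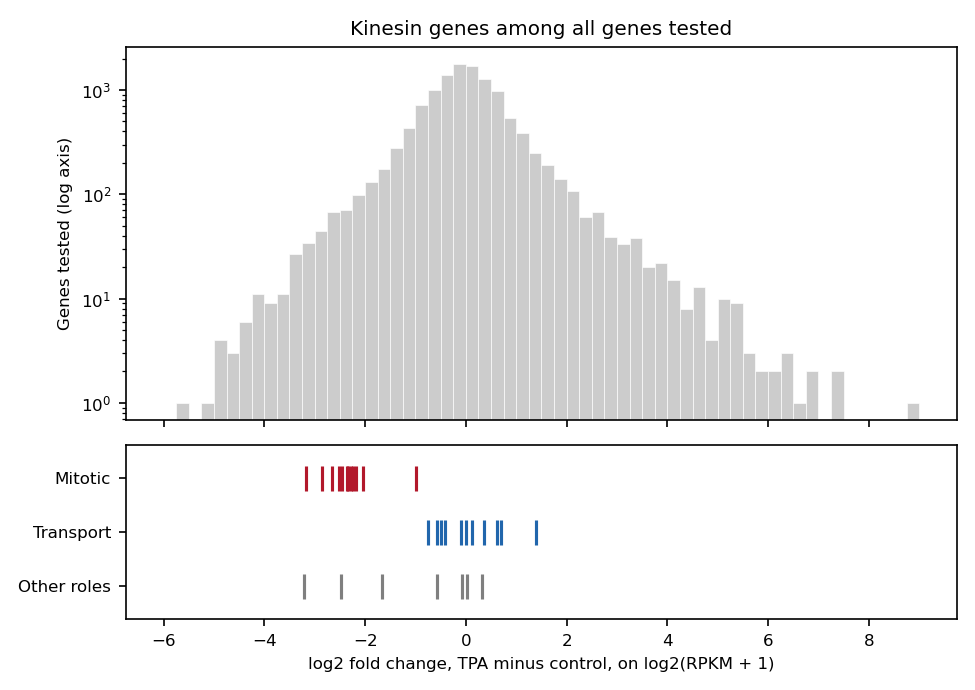
Distribution of log2 fold changes over the 12159 genes tested (top, log axis for the number of genes) and the kinesins by class (bottom, 1 tick a gene). The mitotic kinesins sit in the left tail and the transport kinesins around 0.

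Kinesins named otherwise, and the genes that work with kinesins, were looked at in the same way. CENPE, the kinetochore kinesin that the symbol rule leaves out, had 2.48 and 2.36 RPKM with TPA, against 13.1 and 13.6 RPKM in control (log2 fold change -2.07, SE 0.127, limma adjusted p = 5.63e-06). STARD9, a kinesin of the spindle poles, had 1.38 and 1.53 RPKM with TPA, against 2.38 and 2.09 RPKM in control (log2 fold change -0.39, limma adjusted p = 0.0317). STARD9 lost its call with no filter on low values (limma adjusted p = 0.14), and with 1 library left out its log2 fold change ran from -0.46 to -0.33.

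All 14 genes listed as mitotic partners were tested and lower with TPA (median of the log2 fold changes -2.52, each past the threshold), against 29.8% of all genes called lower. Of these, 13 reached 1 RPKM in every library. The other 1, CIT, reached it in both control libraries and in TPA replicate 1 (1.045 RPKM), with 0.871 RPKM in TPA replicate 2. These encode the proteins that mitotic kinesins bind, that target them or that phosphorylate them. NUSAP1, a microtubule bundler of the spindle, had 9.22 and 10.7 RPKM with TPA, against 127 and 147 RPKM in control, and AURKB, the kinase of the chromosomal passenger complex, had 7.95 and 8.39 RPKM with TPA, against 96.3 and 106 RPKM in control. RACGAP1, PRC1, TPX2 and CIT, partners of KIF23, KIF4A, KIF11 and KIF14, had log2 fold changes of -2.52, -2.75, -2.66 and -2.07. All 7 proliferation markers fell as well, against the same 29.8%. TOP2A, the topoisomerase that untangles chromosomes, had 17.8 and 17.2 RPKM with TPA, against 131 and 144 RPKM in control, and CCNA2, the cyclin of S phase and G2, had 5.29 and 6.14 RPKM with TPA, against 53.7 and 64.1 RPKM in control. MKI67 had 1.90 and 1.03 RPKM with TPA, against 14.4 and 13.2 RPKM in control. Their part in the mitotic kinesin values was not tested.

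Of the 13 genes of the MuvB, FOXM1 and pocket protein complexes, which act on CHR promoters, 2 rose, 10 fell and 1 did not pass, against 28.4% of all genes called higher and 29.8% called lower. MYBL2 (B-MYB) and FOXM1, activators that join MuvB, fell the most. MYBL2 had 6.73 and 5.11 RPKM with TPA, against 128 and 140 RPKM in control, and FOXM1 had 3.21 and 3.21 RPKM with TPA, against 41.8 and 44.9 RPKM in control. RBL2 (p130), a pocket protein of the repressive DREAM form of the complex, did not pass, with 18.9 and 23.9 RPKM with TPA, against 20.8 and 24.1 RPKM in control. RBL1, another pocket protein, fell, with 1.73 and 1.94 RPKM with TPA, against 10.8 and 12.3 RPKM in control (log2 fold change -2.14). TFDP2, a partner of E2F factors, rose to 23.8 and 26.2 RPKM with TPA, against 10.7 and 10.2 RPKM in control. Its relative TFDP1 fell (log2 fold change -1.94). LIN37, a MuvB subunit, rose less (log2 fold change 0.37, limma adjusted p = 0.0377). It lost its call with no filter (limma adjusted p = 0.0663), so that 1 gene was then counted as risen. With 1 library left out, the log2 fold change of LIN37 ran from 0.32 to 0.41. The part of the genes of these complexes in the kinesin values was not tested.

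Partners of transport kinesins went both ways. Of 17 tested, KIF1BP among them, 4 rose, 3 fell and 10 did not pass, against 28.4% of all genes called higher and 29.8% called lower, and the log2 fold changes had a median of 0.14. TRAK2, an adaptor that links KIF5 motors to mitochondria, rose to 72.9 and 95.9 RPKM with TPA, against 26.0 and 28.3 RPKM in control (log2 fold change 1.59, SE 0.164, limma adjusted p = 9.50e-05), while its relative TRAK1 did not pass (-0.37, limma adjusted p = 0.0691). KTN1, which encodes the kinesin-binding membrane protein kinectin, fell to 46.6 and 53.2 RPKM with TPA, against 82.8 and 94.9 RPKM in control. MAPK8IP3, a scaffold between kinesin light chains and cargo, rose, with a log2 fold change of 0.78. With no filter 2 rose, TRAK2 and KLC4, and 1 fell, KIF1BP, while KIFAP3 and MAPK8IP3 lost their calls. Over all 27142 genes then tested 2514 rose and 2097 fell. KTN1 had a limma adjusted p of 0.0526 in that fit.

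Dynein is the minus-end motor of the cytoplasm and dynactin its cofactor. Calls were made for 6 of the 22 genes tested, 4 higher and 2 lower with TPA, and 16 did not pass, against 58.2% called of all genes. The heavy chain gene DYNC1H1 had 16.4 and 10.5 RPKM with TPA, against 13.2 and 12.4 RPKM in control. NDE1, a dynein regulator, rose to 35.3 and 32.1 RPKM with TPA, against 11.8 and 11.4 RPKM in control, and the light chain gene DYNLL2 fell to 32.6 and 40.03 RPKM with TPA, against 53.7 and 55.7 RPKM in control. ACTR10, a dynactin subunit, rose to 20.05 and 25.4 RPKM with TPA, against 12.5 and 14.1 RPKM in control, and the light intermediate chain gene DYNC1LI1 fell to 18.3 and 21.6 RPKM with TPA, against 26.0 and 28.8 RPKM in control. These counts moved with the processing, as did those over all genes (main fit 3454 higher and 3621 lower of 12159). With no filter 2 rose and 0 fell (all genes 2514 and 2097 of 27142). After quantile normalization 7 rose and 2 fell (all genes 3658 and 3814 of 12159). After median-of-ratios scaling 6 rose and 3 fell (all genes 3912 and 3655 of 12159). With 1 library left out, the log2 fold change ran from -0.73 to -0.44 for DYNLL2 and from -0.56 to -0.33 for DYNC1LI1.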

How the data were processed

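The authors deposited 1 table of RPKM values per gene and RNA library, per the file headers, to 3 decimals; its gene labels hold a symbol and a band. CASAVA 1.8, Bowtie 1.12, TopHat, SAMtools and HOMER on hg19 are named in the submitters' processing notes, without role or order; strand use and the treatment of reads with several matches are not given in the sources used here. Because RPKM is no count, count models were left out, and absolute depth, hence any counting interval, is unknown. Relative depth came from steps between values of 0.03 to 0.15 RPKM. Replicates were not copies of 1 library: of 1360 genes averaging 50 RPKM or more, 65.1% differed by over 10% between TPA replicates and 49.5% between control replicates.

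Groups and replicate numbers came from the sample titles. Values were tested as log2(RPKM + 1), TPA minus control, in R 4.3.3 with limma 3.58.1 (trended variance; degrees of freedom 2 residual and 5.88 prior), two-sided, unscaled; the same code was tested on simulated data. Fold changes on this scale understate the change of low genes. Alternatives were pseudocounts of 0.1 and 0.5, no filter or 5 RPKM, median-of-ratios scaling, quantile normalization, no trend, robust estimation, thresholds of 0.01 and 0.1, a replicate block, each library left out, protein-coding genes alone, and other list membership. The genes named are every kinesin, for each list of other genes the 2 lowest p-values either way, CENPE, STARD9 and MKI67; any further partner or marker gene was picked with its values in view. The members and lists were chosen with earlier results of these data known. Figures were drawn with matplotlib 3.10.9.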

Additional observations from a re-analysis of the deposited data

How the results depend on the processing

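All 12 tested mitotic kinesins fell in every alternative except the 5 RPKM filter, which tests 11 of them and left 11 falling; the wider list with KIF2A gave 13. Their median log2 fold change, -2.35, was -2.66 with a pseudocount of 0.1 and -2.41 to -2.30 with 1 library left out. The transport calls were less stable than the mitotic ones. Calls over all genes moved too: in the main fit 3454 rose and 3621 fell of 12159, against 2514 and 2097 of 27142 with no filter. With no filter, where far more low genes enter the variance fit, 1 transport kinesin rose and 2 fell (main values 4 and 4), the median log2 fold change of the transport kinesins was 0.01 and the median log2 fold change of the other kinesins was -0.08, against -0.57. The transport median, just under 0, was 0.12 with the 5 RPKM filter (other group -1.52), 0.04 after median-of-ratios scaling and 0.06 with the changed lists (other group -1.67). Transport kinesins falling numbered 2 after median-of-ratios scaling, where 3655 of all 12159 genes fell. They numbered 1 at an adjusted p under 0.01, a threshold at which calls over all genes were not counted. In the other group 1 gene, KIF21B, rose after either scaling and at an adjusted p under 0.1. With 1 library left out, 19 to 21 motors were called, against 24; transport kinesins rising numbered 2 to 3 and falling 1 to 3, their median was -0.08 to 0.02, and in the other group 0 rose, 3 to 4 fell and the median was -0.62 to -0.51. Such fits assume that the lone library varies like the other group, and without a control library the prior degrees of freedom became infinite, so their p-values cannot be set against the main ones. Signs of genes near 0 turned: KIF13B was 0.04 after median-of-ratios scaling and -0.08 to 0.07 with 1 library left out, KIF27 was -0.22 after quantile normalization and -0.03 to 0.07 with 1 library left out, and KIF16B was -0.06 (without TPA replicate 2) to 0.30. Where no construction of the alternative shows it, the cause was not tested. The labels do not say whether libraries with the same replicate number share more than the number. Their deviations correlated across genes (r = 0.361, genes not being replicates), and the main fit has no replicate term. With the replicate block 25 motors were called, against 24 in the main fit, and the 12 mitotic falls remained. In the other group 1 gene rose (KIF21B, limma adjusted p = 0.0286). Calls over all genes grew too, to 3946 higher and 4288 lower of 12159 with the block. Without the read totals, values under about 0.1 RPKM cannot be given a counting error.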
